A study of Mus musculus with 72 samples.

Results

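The response described here is that of Setd1aDel/+ RAW264.7 macrophages to 16 h of dexamethasone (Dex) during stimulation with lipopolysaccharide (LPS). It rests on 6 of the 72 samples of the series, 3 libraries labelled Raw_Setd1aDel_16hDexLPS and 3 labelled Raw_Setd1aDel_16hLPS, which were chosen by these labels alone. The cells of both groups carried the Setd1aDel/+ genotype, and both received 100 ng/ml LPS for 6 h. The control group received 0.1% ethanol, the solvent, for 16 h, and the treated group received 1 uM Dex for 16 h. The labels' protocol text writes the LPS concentration with another volume unit (ng/ul), and the unit of the sample labels is used here. RAW264.7 is a macrophage-like line grown from a BALB/c mouse tumour, and its strain and sex are labelled BALB/c and male. The labels do not say which part of Setd1a is deleted or whether the Setd1aDel/+ cells are 1 clone or several. Whether the 3 biological replicates came from separate cultures is not stated either. P-values therefore measure only the spread between libraries, which was pooled over all 18 libraries of the 16 h experiment unless stated otherwise. Reference groups of 3 libraries each were Setd1aDel/+ cells given vehicle (0.1% ethanol) for 16 h, wild-type cells given the same 3 treatments, and Setd1aDel/+ cells of a separate experiment with 6 h of Dex or ethanol and 6 h of LPS. Gene sets were also drawn from Setd1aDel/+ cells given 6 h of 1 uM Dex alone or its vehicle, and from another experiment in which these cells received LPS with or without 10 ng/ml interferon beta (IFNB1). Messenger RNA was measured by poly(A) RNA sequencing, and levels are given in TPM, the share of a transcript among all transcripts, a unit already corrected for transcript length and library size. The number of reads behind a value is unknown.

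LPS, a component of the outer membrane of Gram-negative bacteria, is sensed by TLR4 and switches on inflammatory genes through NF-kB and AP-1 and a second wave of genes through IRF3 and interferon beta. Dex is a synthetic glucocorticoid that binds the glucocorticoid receptor, a nuclear receptor encoded by Nr3c1. The bound receptor activates some genes at glucocorticoid response elements and lowers the expression of many inflammatory genes. SETD1A is the catalytic subunit of a COMPASS complex that methylates lysine 4 of histone H3 at active promoters.

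The promoters of 4 genes show the sequence elements that these pathways are known to use. They were taken from the RefSeq promoter sequences of build GRCm38.p6, which run from 250 bases before to 50 bases after a gene's start, and 4 members of the response were chosen because an element lies in that window. Capitals mark GNACANNNTGTNC, the core of a glucocorticoid response element, in Sgk1 (chr10:21993640-21993939, plus strand) and Mt1 (chr8:94178839-94179138, plus strand), both of which were higher with Dex. In Ifit1 (chr19:34640639-34640938, plus strand) and Ifit3 (chr19:34583279-34583578, plus strand), both lower with Dex, capitals mark GAAANNGAAA, the core of an interferon-stimulated response element, which is read there on the minus strand.
Sgk1 promoter: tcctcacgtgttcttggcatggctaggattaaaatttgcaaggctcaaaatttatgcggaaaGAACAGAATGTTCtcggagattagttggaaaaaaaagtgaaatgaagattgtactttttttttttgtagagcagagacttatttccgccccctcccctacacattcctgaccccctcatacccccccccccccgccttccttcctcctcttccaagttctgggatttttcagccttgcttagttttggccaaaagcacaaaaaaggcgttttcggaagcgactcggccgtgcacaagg
Mt1 promoter: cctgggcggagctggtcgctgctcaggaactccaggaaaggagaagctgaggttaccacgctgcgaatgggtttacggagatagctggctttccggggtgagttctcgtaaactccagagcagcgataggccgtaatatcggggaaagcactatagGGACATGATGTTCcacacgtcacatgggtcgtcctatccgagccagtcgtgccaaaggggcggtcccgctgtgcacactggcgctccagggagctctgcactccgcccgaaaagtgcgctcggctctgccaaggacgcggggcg
Ifit1 promoter: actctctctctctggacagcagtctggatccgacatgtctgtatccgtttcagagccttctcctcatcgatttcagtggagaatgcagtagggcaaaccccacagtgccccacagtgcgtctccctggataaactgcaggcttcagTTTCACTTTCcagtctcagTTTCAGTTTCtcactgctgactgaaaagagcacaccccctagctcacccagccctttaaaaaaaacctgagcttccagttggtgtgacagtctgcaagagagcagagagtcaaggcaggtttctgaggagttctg
Ifit3 promoter: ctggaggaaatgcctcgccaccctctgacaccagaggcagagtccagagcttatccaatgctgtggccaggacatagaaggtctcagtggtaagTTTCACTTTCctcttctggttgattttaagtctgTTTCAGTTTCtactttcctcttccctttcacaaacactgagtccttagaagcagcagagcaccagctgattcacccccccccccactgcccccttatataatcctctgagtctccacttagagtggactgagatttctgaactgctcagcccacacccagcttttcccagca
The Sgk1 window is 1 of 6 RefSeq promoters of that gene, and its match begins 188 bases before the start, while that of Mt1 begins 94 bases before it. Ifit1 and Ifit3 each held 2 matches. Searched on both strands, the glucocorticoid core occurred in the promoters of 17 of 7165 tested genes with a promoter sequence (0.237%), of 8 of 2131 genes higher with Dex (0.375%) and of 1 of 1041 genes lower (0.0961%). The interferon core occurred in 280 of the 7165 (3.91%), in 60 of the 2131 higher (2.82%) and in 89 of the 1041 lower (8.55%). Among genes lower by at least 2-fold it occurred in 37 of 134 (27.6%), and among genes higher by at least 2-fold in 3 of 33 (9.09%). A match is a description of the letters and not evidence of binding.

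The labels were checked first against the targeted gene. Setd1a (chr7:127776670-127800122, GRCm38) was at 16.5, 16.6 and 15 TPM in the LPS libraries and at 14.5, 15 and 20.2 TPM in the Dex with LPS libraries of Setd1aDel cells. In wild-type cells it was at 28.4, 22.9 and 28.9 TPM with LPS and at 26.9, 27.7 and 22.5 TPM with Dex and LPS. The mutant libraries lay below every wild-type library of the same treatment, by -0.70 on the log2 scale with LPS (SE 0.15, adjusted p = 0.000752) and -0.61 with Dex and LPS (SE 0.15, adjusted p = 0.00183). Dex itself left Setd1a at a log2 change of 0.03 (SE 0.15, adjusted p = 0.88). The table lists 8983 genes that had a mean normalized count of at least 50.004 in the 6 h experiment, so a gene absent from it is not analysed here. Of 10 macrophage markers 9 were listed, all at 1 TPM or more, with a summed level of 11700 to 13500 TPM in the LPS libraries and 11900 to 12200 TPM with Dex and LPS. No marker of T cells, B cells, fibroblasts, epithelium or erythroid cells was listed, and S100a8 of the neutrophil and Itgax of the dendritic markers were the only ones listed of those lists. Replicates within a group of this experiment correlated across genes at 0.993 or above.

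Dex lowered a set of LPS-induced genes strongly and raised a few genes strongly, while most changes were small. On the log2(TPM + 1) scale, 2673 of 8964 tested genes were higher (29.8%) and 1333 lower (14.9%) at an adjusted p under 0.05. Among changes of at least 2-fold the balance was the other way, with 43 genes higher and 170 lower, and at 4-fold or more 4 were higher and 46 lower. Adding 1 TPM before the logarithm shrinks the changes of genes at a few TPM. The log2 changes and fold counts given here therefore understate such genes. The share of higher calls was 66.7% as deposited and 51.1% after median-of-ratios scaling, which gave 2028 higher and 1938 lower. That scaling moved the median change of all genes from 0.06 to 0.0073. For 50.8% of tested genes the 3 and 3 libraries did not overlap. In bulk RNA, fewer cells of a kind and less RNA per cell cannot be told apart.

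**Figure D1:**
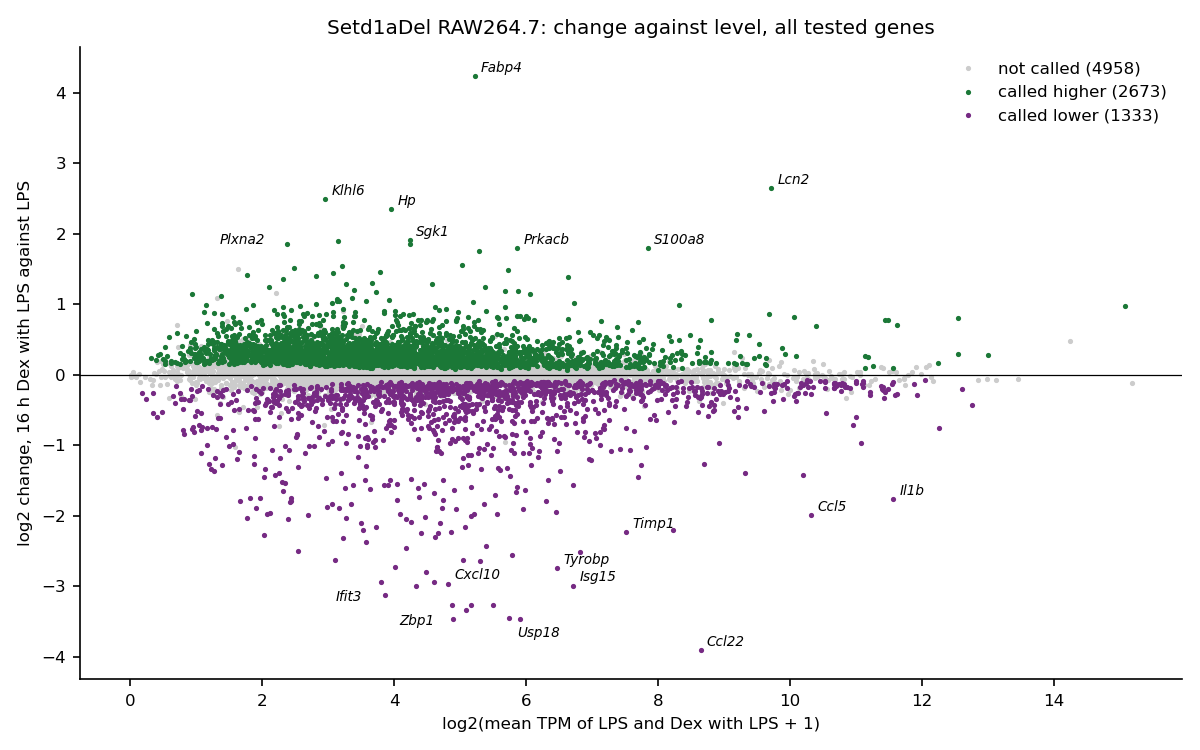
Log2 change with 16 h Dex under LPS in Setd1aDel RAW264.7 cells (y) against the mean level of both groups, log2(TPM + 1) (x), 1 point per tested gene. Green points are the 2673 genes called higher, purple the 1333 called lower and grey the 4958 not called. Fabp4 is at 4.24, Ccl22 at -3.91.

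On the log2 scale used here, which shrinks changes at a few TPM, Fabp4 and Lcn2 had the highest changes among the genes that Dex raised. The authors' deposited table places Klhl6, described below, above Lcn2, with log2 fold changes of 3.11 and 2.59. Fabp4 (chr3:10204088-10208576), which encodes a fatty acid carrier of fat cells and macrophages, was at 2.53, 3.15 and 2.56 TPM with LPS and at 73.1, 71.4 and 64.9 TPM with Dex and LPS. All Dex libraries lay far above all LPS libraries, a log2 change of 4.24 (SE 0.07, adjusted p = 1.14e-15), and the vehicle libraries were at 0.0796 to 0.112 TPM. Lcn2 (chr2:32384633-32388252), a secreted protein that binds bacterial siderophores, was at 233, 225 and 231 TPM with LPS and at 1483, 1373 and 1498 TPM with Dex and LPS. Its log2 change was 2.65 (SE 0.05, adjusted p = 1.08e-14). Both genes were near 0 in vehicle-treated cells, so LPS and Dex with LPS each stood above vehicle.

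Genes of the acute phase and of innate defence were among the other leading genes. Hp, which encodes the haemoglobin-binding protein haptoglobin, was at 3.6, 4.2 and 4.47 TPM with LPS and at 25, 24.5 and 25.2 TPM with Dex and LPS. S100a8, a subunit of calprotectin, was at 99.6, 106 and 98.5 TPM with LPS and at 365, 384 and 317 TPM with Dex and LPS. It is also the neutrophil marker named above, and the other 6 neutrophil markers were not listed. Log2 changes were 2.35 for Hp and 1.79 for S100a8, with no overlap between the groups.

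Klhl6, an adaptor of a ubiquitin ligase, was at 1.3, 1.43 and 1.3 TPM with LPS, at 12.6, 12.9 and 11.1 TPM with Dex and LPS and at 18.9 to 22.1 TPM with vehicle. Its Dex level was thus between the other groups. Prkacb, a catalytic subunit of protein kinase A, had 24.3 to 25.6 TPM with LPS, 86.9 to 91.4 TPM with Dex and LPS and 35.1 to 36.6 TPM with vehicle, so that Dex took it above both. Edn1, the vasoconstrictor endothelin, was at 15.8 to 17.8 TPM in the LPS libraries and at 59.3 TPM in each Dex library. The remaining genes of the 12 with the highest change were Prss16, Plxna2, Clec10a and Ap1s2, with log2 changes of 1.90, 1.86, 1.85 and 1.55, and Sgk1, described next.

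A list of 29 genes known to be induced by glucocorticoids had members on both sides. Of its 19 tested members 7 were higher and 10 lower, beside 29.8% and 14.9% of all tested genes, with a median log2 change of -0.29 against 0.06 for all tested genes. Sgk1, a kinase that regulates ion channels and whose promoter is printed above, was at 6.55, 7.83 and 6.23 TPM with LPS and at 27.5, 24.9 and 34.1 TPM with Dex and LPS, a log2 change of 1.92 (SE 0.14, adjusted p = 2e-08). Tsc22d3, which encodes the anti-inflammatory protein GILZ, was at 1.81, 1.54 and 2.05 TPM with LPS and at 6.25, 6.7 and 5.65 TPM with Dex and LPS. Vehicle-treated cells had 6.5 to 6.98 TPM of it, so the Dex libraries overlapped the vehicle libraries and the LPS libraries lay below both. Fkbp5, a co-chaperone that limits the receptor's own activity, and Klf9, a transcription factor, were likewise lowest with LPS alone. Fkbp5 was at 12.6 to 13.2 TPM with LPS, 31.4 to 34.9 TPM with Dex and LPS and 29.2 to 30 TPM with vehicle. Klf9 was at 5.23 to 5.43 TPM with LPS, 13.6 to 13.7 TPM with Dex and LPS and 10.9 to 12.8 TPM with vehicle. Log2 changes with Dex were 1.36 for Tsc22d3, 1.28 for Fkbp5 and 1.21 for Klf9.

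The metallothioneins Mt1 and Mt2, which bind zinc and copper, and Lcn2, described above, were the other members that rose. Mt1 was at 1958, 2095 and 2282 TPM with LPS and at 3796, 3732 and 3372 TPM with Dex and LPS (log2 change 0.78, SE 0.08, adjusted p = 7.53e-07). Mt2 was at 4061, 4321 and 4710 TPM with LPS and at 8125, 7772 and 7041 TPM with Dex and LPS (log2 change 0.81, SE 0.07, adjusted p = 1.4e-07). For both the groups were apart.

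Several members of the same list that fell were higher with LPS than with vehicle in Setd1aDel cells, among them Zfp36, Dusp1, Per1, Cebpd, Ddit4, Errfi1 and Nfkbia. Lcn2 and Sgk1, which rose with Dex, were higher with LPS than with vehicle as well. Zfp36, which encodes the messenger RNA decay factor tristetraprolin, was at 538, 583 and 630 TPM with LPS and at 242, 236 and 244 TPM with Dex and LPS (log2 change -1.27), against 39.1 to 41.5 TPM with vehicle. Dusp1, a phosphatase of MAP kinases, was at 30.5, 32.7 and 30.7 TPM with LPS and at 21.7, 19.6 and 19.5 TPM with Dex and LPS (log2 change -0.60, SE 0.06, adjusted p = 3.6e-07). Per1, a clock gene, was at 19.4, 21.6 and 22.8 TPM with LPS and at 15.5, 19.3 and 15.1 TPM with Dex and LPS, so its groups nearly touched. Its call (log2 change -0.34, adjusted p = 0.021) was lost when any of 4 libraries was left out, with adjusted p between 0.0576 and 0.091. Cebpd, Ddit4, Errfi1, Anxa1, Klf4, Nfkbia and Bcl6 were lower by -1.08 to -0.29. Cebpb and Glul were not called, with log2 changes of 0.20 and 0.01. Nr3c1, the receptor's own gene, was at 13.8 to 22.6 TPM with LPS and at 15.4 to 18.3 TPM with Dex and LPS, and did not pass the test (log2 change 0.02, adjusted p = 0.94).

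**Figure D2:**
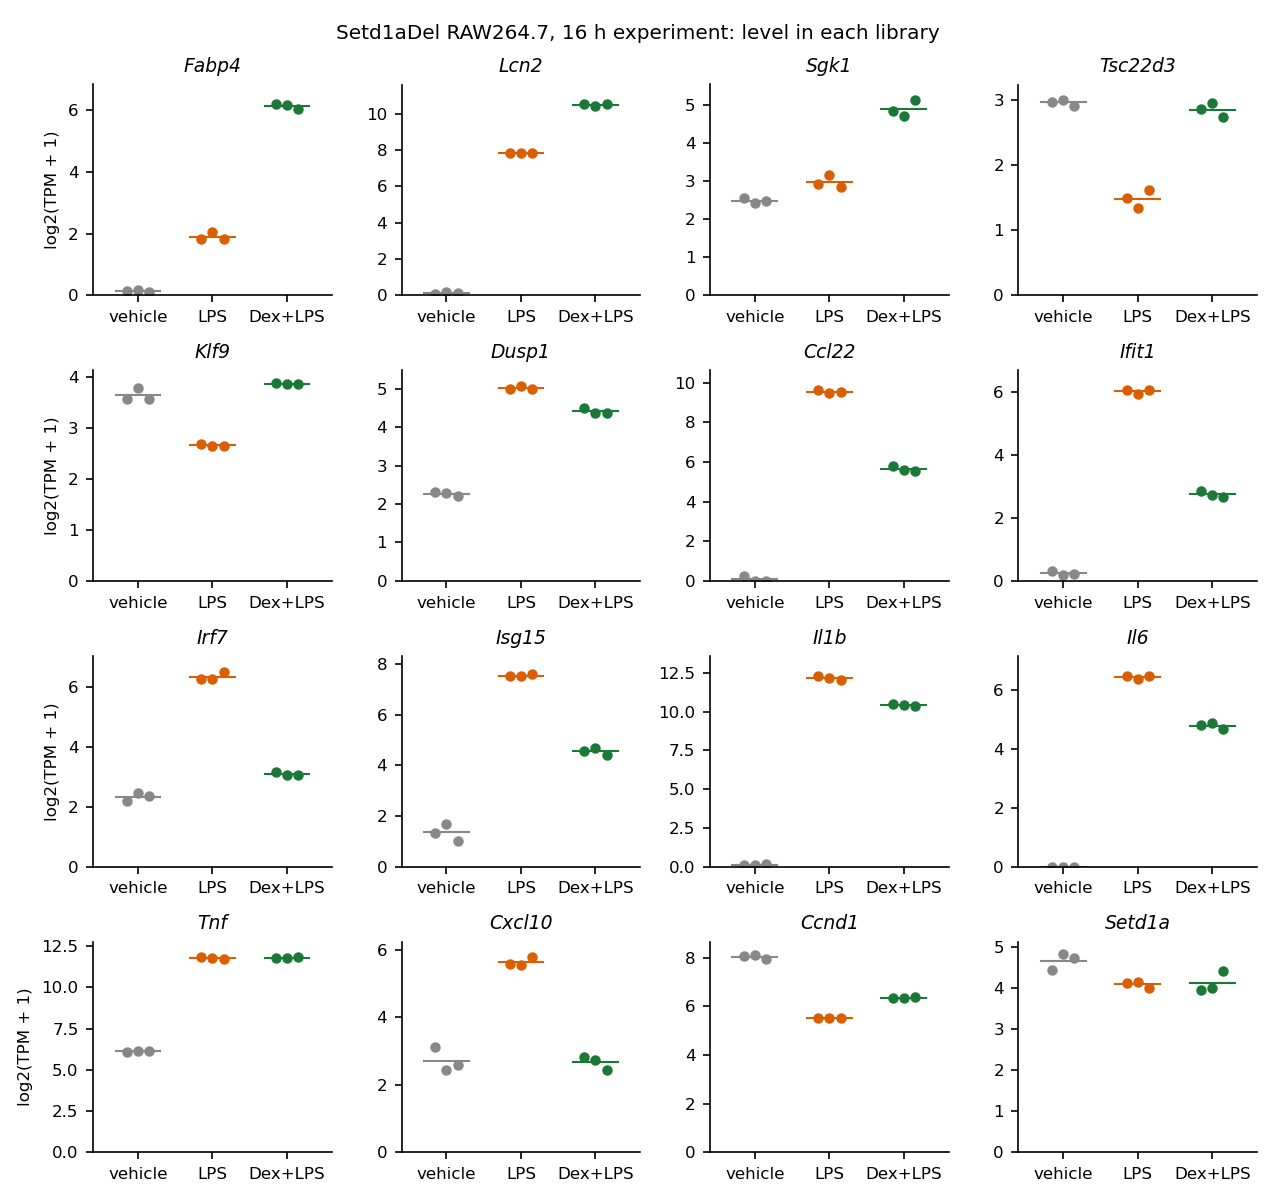
Level of 16 genes, log2(TPM + 1), in the 9 libraries of Setd1aDel RAW264.7 cells of the 16 h experiment (grey, vehicle; orange, LPS; green, Dex with LPS; 3 points per group, bar at the mean). Fabp4 and Lcn2 rise above their LPS level, Ccl22, Ifit1, Irf7, Isg15, Il1b, Il6 and Cxcl10 fall below it, and Tnf is at 3383 to 3736 TPM in the LPS and 3460 to 3598 TPM in the Dex with LPS libraries.

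Interferon-stimulated genes made up the most uniform group. All 53 tested members of a 58-gene list were lower with Dex, beside 14.9% of all tested genes, and none was higher, with a median log2 change of -2.04. Of the 12 genes with the lowest changes, Ifi44, Zbp1, Usp18, Xaf1, Ifit1, Irf7, Ifit3 and Isg15 belonged to this list. Summed over the list, the level was 5398 to 5711 TPM with LPS, 2460 to 2639 TPM with Dex and LPS and 1787 to 1864 TPM with vehicle. The count of 53 was the same after median-of-ratios scaling, when 1938 of all 8964 tested genes were lower.

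Ifit1 (chr19:34640871-34650009), an RNA-binding antiviral protein whose promoter is printed above, was at 66.6, 61 and 65.4 TPM with LPS and at 6.23, 5.67 and 5.4 TPM with Dex and LPS. Its log2 change was -3.27 (SE 0.08, adjusted p = 1.52e-13), and vehicle cells had 0.129 to 0.249 TPM. Ifit3, its partner in the same cluster of genes, was at 25.1, 23.2 and 27.1 TPM with LPS and at 2.27, 1.96 and 1.79 TPM with Dex and LPS (log2 change -3.12). Reads of Ifit3 and its near copy Ifit3b may be split between them, and Ifit3b was lower too, by -2.27.

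Irf7, the transcription factor that amplifies type I interferon, was at 76.9, 77 and 88.9 TPM with LPS and at 7.91, 7.31 and 7.29 TPM with Dex and LPS (log2 change -3.27, SE 0.12, adjusted p = 8.12e-12). Usp18, which removes ISG15 from proteins and damps interferon receptor signalling, was at 101, 92.6 and 98.3 TPM with LPS and at 8.45, 7.51 and 8 TPM with Dex and LPS (log2 change -3.45). Isg15, a ubiquitin-like modifier, was at 182, 183 and 192 TPM with LPS and at 22.7, 25 and 20 TPM with Dex and LPS (log2 change -2.99). In these 3 genes the Dex libraries stayed above vehicle, whose highest library had 4.45 TPM of Irf7, 3.93 TPM of Usp18 and 2.23 TPM of Isg15. Oas3, an enzyme that makes the activator of RNase L, was at 40, 39.6 and 46.4 TPM with LPS and at 4.51, 5.14 and 4.23 TPM with Dex and LPS (log2 change -2.93). Vehicle cells had 10.1 to 14.8 TPM of Oas3, so the Dex libraries lay under vehicle. The smallest decreases of the list were those of Ifi47, Slfn2 and Ifitm3, at -0.34, -0.52 and -0.60. Apol9a and Ifi44l, outside the list but among the 12 lowest, fell by 2.99 and 3.26 on the log2 scale. Apol9a, the Oas1 genes and H2-T24 have close copies between which reads may be divided.

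LPS-induced cytokines and chemokines fell as a group, but several abundant ones were not called. Of 23 tested members of a 42-gene list, 17 were lower and 1, Csf3, was higher, with a median log2 change of -0.88. Of all tested genes 14.9% were lower and 29.8% higher. Ccl22 (chr8:94745590-94751699), a ligand of CCR4 on T cells, had the lowest change of the genes named here. It was at 800, 721 and 731 TPM with LPS and at 55.3, 47.3 and 45.1 TPM with Dex and LPS, a log2 change of -3.91 (SE 0.10, adjusted p = 1.52e-13). Cxcl10, an interferon-induced ligand of CXCR3, was at 47.5, 45.6 and 54 TPM with LPS and at 6.18, 5.72 and 4.45 TPM with Dex and LPS (log2 change -2.96), close to its 4.43 to 7.76 TPM with vehicle.

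Interleukin 1 genes fell on both sides of the pathway. Il1b was at 5178, 4546 and 4332 TPM with LPS and at 1429, 1391 and 1309 TPM with Dex and LPS (log2 change -1.76, SE 0.07, adjusted p = 1.03e-11). Il1rn, which encodes the natural antagonist of the interleukin 1 receptor, was at 482, 479 and 513 TPM with LPS and at 104, 106 and 110 TPM with Dex and LPS (log2 change -2.19). Il6 was at 89.4, 82.9 and 88.3 TPM with LPS and at 27, 28.9 and 24.4 TPM with Dex and LPS (log2 change -1.66), and was listed at 0 in all vehicle libraries. Ccl2, which recruits monocytes, was at 51.2, 45 and 39.7 TPM with LPS and at 20.7, 15.8 and 16.6 TPM with Dex and LPS (log2 change -1.31).

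Tnf, Ccl3, Ccl4, Cxcl2 and Tnfsf9 did not pass the test. Tnf was at 3736, 3485 and 3383 TPM with LPS and at 3460, 3493 and 3598 TPM with Dex and LPS, overlapping groups with a log2 change of -0.01 (SE 0.06). Ccl3 was at 37970 to 39952 TPM with LPS and at 34310 to 36840 TPM with Dex and LPS, a log2 change of -0.11 (adjusted p = 0.17). After median-of-ratios scaling Ccl3 was called lower (adjusted p = 0.0281). Cxcl2 was at 15914 to 17225 TPM with LPS and at 22648 to 22738 TPM with Dex and LPS. Its log2 change of 0.47 had an adjusted p of 0.10 in the fit of all 6 groups and of 0.000196 when these 2 groups alone were fitted. Csf3, the granulocyte growth factor, was higher by 0.70, and Csf2, the granulocyte-macrophage growth factor, was at 3392, 2943 and 2844 TPM with LPS and at 2490, 2402 and 2386 TPM with Dex and LPS (log2 change -0.33). The Csf2 call was lost with a pseudocount of 0.1 (adjusted p = 0.261), although its log2 change stayed at -0.33. What changed was thus the spread estimated in the fit of all 6 groups.

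Enzymes of inflammatory mediators held 5 higher and 5 lower of 14 tested, beside 29.8% higher and 14.9% lower of all genes. Nos2, the inducible nitric oxide synthase, was at 41.6, 35.6 and 38.8 TPM with LPS and at 18.4, 19 and 21.9 TPM with Dex and LPS (log2 change -0.94). Ptgs2, the inducible cyclooxygenase, was at 2634, 2401 and 2396 TPM with LPS and at 1458, 1527 and 1559 TPM with Dex and LPS (log2 change -0.71). Alox5ap, which presents arachidonate for leukotriene synthesis, was higher by 1.02, with 66.3 to 72.7 TPM in the LPS and 137 to 148 TPM in the Dex with LPS libraries. Acod1, which makes itaconate, fell by 0.15 on the log2 scale, with 2699 to 2958 TPM in the LPS libraries.

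Negative regulators of these pathways were mostly lower as well. Of 20 tested feedback inhibitors 15 fell and 2 rose (median -0.45), beside 14.9% lower and 29.8% higher of all tested genes. Cish, a cytokine signalling inhibitor, was lower by -1.43, Dusp2 by -1.08 and Tnip3 by -0.97. Irak3, which restrains Toll-like receptor signalling, rose by 0.83 and Zc3h12a, an RNase that degrades cytokine messages, by 0.31. Among 15 tested NF-kB and AP-1 genes 10 fell, including Atf3 by 1.49, Rel by 0.78 and Nfkb2 by 0.62 on the log2 scale, and 1, Jun, rose by 0.52. Rela and Relb were not called, at -0.03 and -0.01. Of 23 sensors and adaptors 9 fell and 5 rose, a share of rises below the 29.8% of all tested genes. The inflammatory caspase genes Casp4 and Casp1 were at -1.32 and -0.75 and Tlr13, a sensor of bacterial ribosomal RNA, at 1.52.

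Of 17 presentation and costimulation genes 11 were lower and none higher (median -0.37), beside 14.9% lower and 29.8% higher of all tested genes. After scaling 14 were lower, beside 1938 of all 8964 tested genes. Cd40, a costimulatory receptor, was at 75.8, 70.2 and 75.4 TPM with LPS and at 19.5, 17.9 and 16.9 TPM with Dex and LPS (log2 change -1.97), and Tap1, of the peptide transporter, fell by 1.39. Cd74, the invariant chain of class II molecules, fell by 0.64, whereas H2-D1 and Icam1 were not called, at -0.17 and -0.05. After scaling both were called lower (adjusted p = 0.0136 and 0.00347), and H2-D1 also in a fit of the compared groups alone (adjusted p = 0.0103). Of 23 macrophage identity genes 7 were higher, 6 lower and 10 not called, Lyz2 and Cd14 among the latter, beside 29.8% higher and 14.9% lower of all tested genes, so the share of higher calls was near that of all genes. Fcgr1, the high-affinity Fc receptor, fell by 1.56 while Fcgr3 rose by 0.91. Tyrobp, an adaptor of myeloid receptors, was called lower by -2.74 (SE 0.82, adjusted p = 0.013) on uneven values, 109, 181 and 125 TPM with LPS and 52.1, 1.73 and 57.2 TPM with Dex and LPS. Without the Dex library at 1.73 TPM the change was -1.29 (adjusted p = 0.014), and in a fit of the compared groups alone the call was lost (adjusted p = 0.0889).

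Genes of lipid handling other than Fabp4 were mostly lower. Of 17 tested, 10 fell and 4 rose (median -0.22), beside 14.9% lower and 29.8% higher of all tested genes. Abca1, which exports cholesterol, was at 6.19 to 6.9 TPM with LPS and at 1.5 to 1.77 TPM with Dex and LPS (log2 change -1.54). Lipa, the lysosomal acid lipase, was at 289 to 324 TPM with LPS and at 106 to 114 TPM with Dex and LPS (log2 change -1.45). In the list of sterol and fatty acid synthesis 16 of 21 were lower and none higher, by at most 0.91 in size (median -0.38). Its lowest members were Msmo1 and Cyp51, both demethylation enzymes of cholesterol synthesis, with log2 changes of -0.91 and -0.81, whereas Fasn and Srebf1 were not called, at 0.03 and 0.07. Of 10 scavenger and efferocytosis genes 5 rose and 4 fell, Olr1, a receptor for oxidised lipoprotein, by 2.04 on the log2 scale.

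Most clock genes were lower and Arntl, which encodes the activator BMAL1, was higher. Of 11 tested 8 fell and 1 rose (median -0.66), beside 14.9% lower and 29.8% higher of all tested genes. Tef was at 2.79, 2.75 and 2.58 TPM with LPS and at 0.417, 0.763 and 0.409 TPM with Dex and LPS. Its log2 change was -1.28 on the log2(TPM + 1) scale, which shrinks changes at such levels, and -2.45 in the authors' deposited table. Cry2 was at 5.21, 6 and 5.83 TPM with LPS and at 2.1, 2.05 and 1.68 TPM with Dex and LPS (log2 change -1.18). Nr1d1 fell by 1.00 and Arntl rose by 0.61 on that scale.

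Genes of DNA replication and mitosis were higher by small amounts. Of 45 tested 40 were higher and none lower, beside 29.8% higher of all genes, with a median log2 change of 0.30. After median-of-ratios scaling 35 were higher, beside 2028 of all 8964 tested genes. Rrm2, a subunit of ribonucleotide reductase, was at 37, 36.4 and 37.3 TPM with LPS and at 63.8, 64.6 and 66.9 TPM with Dex and LPS (log2 change 0.80), against 163 to 172 TPM with vehicle. Ccne1, cyclin E1 of the G1 to S step, was at 6.12, 5.63 and 4.51 TPM with LPS and at 10.6, 11.1 and 11.9 TPM with Dex and LPS (log2 change 0.93), against 40.3 to 43.7 TPM with vehicle. In both, the Dex libraries lay between LPS and vehicle. Mki67, a marker of cycling cells, rose by 0.46. Cdk1 and Aurka were not called, at 0.03 and -0.02. Among G1 genes 7 of 11 rose and 2 fell, beside 29.8% higher and 14.9% lower of all tested genes. Ccnd1, cyclin D1, was at 44.4, 45.1 and 44.8 TPM with LPS and at 79.3, 80 and 82.7 TPM with Dex and LPS (log2 change 0.84), while Myc was at 32.2, 33.9 and 32.1 TPM with LPS and at 15.5, 16.1 and 15 TPM with Dex and LPS (log2 change -1.03).

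Other lists moved less or in both directions, and their counts stand beside 29.8% higher and 14.9% lower of all tested genes. Of secreted proteases and inhibitors 4 of 12 rose and 5 fell, Timp1, an inhibitor of metalloproteinases, from 319, 294 and 291 TPM to 68.3, 63.2 and 59 TPM (log2 change -2.23). Of osteoclast genes 5 of 10 fell and 1 rose, led by the tartrate-resistant phosphatase Acp5, at 28, 32.4 and 29.2 TPM with LPS and 8.62, 9.84 and 9 TPM with Dex and LPS (log2 change -1.60). Of 20 lysosomal genes 11 fell and 1 rose, none by more than 0.52 in size. Glycolysis and hypoxia genes had 10 higher and 2 lower of 20, and 5 higher and 4 lower after scaling, with Pfkfb3, which drives glycolysis, at 0.60. Stress response genes had 5 higher and 8 lower of 20, and oxidative stress genes 5 and 5 of 21, which became 3 and 10 after scaling. Scaled counts stand beside 2028 higher and 1938 lower of all 8964 tested genes after scaling. As deposited, the share of higher calls in both stress lists was below that of all tested genes. For the secreted proteases and inhibitors it was near that of all tested genes. Among 16 COMPASS subunits the share of higher calls did not exceed the 29.8% of all tested genes. The 4 that were higher were Paxip1, Dpy30, Wdr5 and Cxxc1, by 0.32 to 0.14, and none was lower. Cxxc1 lost its call after scaling (adjusted p = 0.134), in a fit of the compared groups alone and without either of 2 libraries (adjusted p = 0.0729 and 0.0918). Receptor and chaperone genes had 4 higher and 2 lower of 17, shares no larger than the 29.8% and 14.9% of all tested genes.

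**Figure D3:**
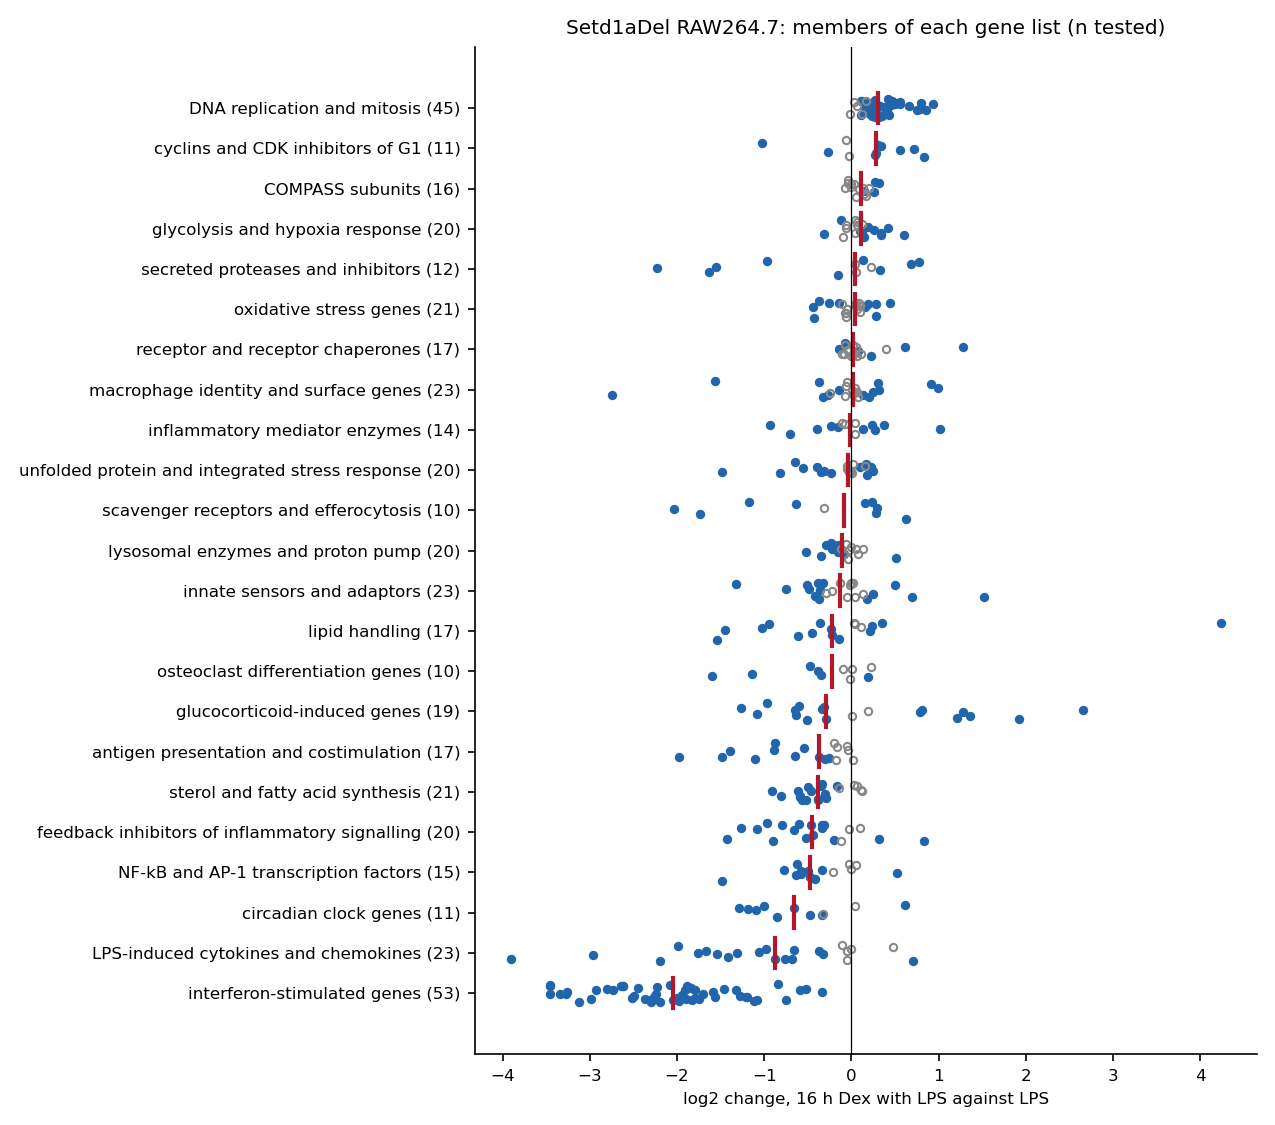
Log2 change with 16 h Dex under LPS in Setd1aDel RAW264.7 cells (x) for the tested members of 23 gene lists (y, number tested in parentheses). Filled points were called, open points not, and the red bar is the list's median. Medians run from -2.04 for interferon-stimulated genes to 0.30 for DNA replication and mitosis, and the glucocorticoid-induced list has members on both sides of 0.

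Sets defined in other libraries gave a further view of the same change. Their shares stand beside the 29.8% higher and 14.9% lower of all tested genes. Of 513 genes at least 2-fold higher with LPS than with vehicle in wild-type cells, 354 were lower with Dex in Setd1aDel cells (69%) and 59 higher (11.5%), with a median of -0.46. They included 131 of the 170 genes lower by at least 2-fold (77.1%). Of 1507 genes lower with LPS in wild-type cells, 875 were higher with Dex (58.1%) and 80 lower (5.31%), with a median of 0.24. Median-of-ratios scaling moved the median wild-type LPS change of all genes by 0.38 and resized these sets. The set higher with LPS then held 743 genes, 510 lower and 72 higher with Dex, and the set lower with LPS held 765, 426 higher and 53 lower. These scaled counts stand beside 2028 higher and 1938 lower of all 8964 tested genes. Of 207 tested genes that added interferon beta (IFNB1, 10 ng/ml) raised at least 2-fold over LPS alone in a separate Setd1aDel experiment, 174 were lower with Dex (84.1%) and 11 higher. Their median was -1. The LPS-raised set was then divided by whether IFNB1 had raised a gene at least 2-fold, a division chosen after the values were seen. Of 158 genes so raised 143 were lower (90.5%, median -1.33). Of the other 355 genes 211 were lower (59.4%, median -0.28). Those 355 include genes with a smaller IFNB1 response, such as Lcn2 (log2 change 0.88). Of 93 tested genes raised by 6 h of Dex alone in Setd1aDel cells, 51 were higher (54.8%) and 18 lower (19.4%). The share that was lower was near the 14.9% of all tested genes.

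Wild-type cells of the same experiment gave a response that mostly ran the same way. There 3159 genes were higher (35.2%) and 1107 lower (12.3%). Both comparisons came from the same fit of 18 libraries and share its estimate of the spread between replicates, but no library of either contrast enters the other. Of the 4006 genes called in Setd1aDel cells 2760 were called in the same direction in wild type, which is 68.9% of the mutant and 64.7% of the wild-type calls, and 66 were called in opposite directions. The difference between the responses, tested as an interaction, was positive for 258 genes (2.88%) and negative for 688 (7.68%). After median-of-ratios scaling, which moved the wild-type median by -0.10, these became 511 and 475, so the balance of directions depends on scaling. Of the 946 genes, 149 were lower in both genotypes and more so in Setd1aDel cells, 62 lower in both and less so, 32 higher in both and more so and 144 higher in both and less so. A further 281 were called in wild type only, 210 in Setd1aDel cells only, 66 in opposite directions and 2 in neither.

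The interferon-stimulated list held 37 negative and 2 positive differences among 53 tested genes, the positive ones those of Ifit3b and Ifi47. Of all tested genes 7.68% were negative and 2.88% positive. After scaling the list held 36 and 2. In wild type 51 of its 53 members were lower and the median was -0.92, against -2.04 in Setd1aDel cells. Summed levels in wild type were 10360 to 10792 TPM with LPS and 5426 to 6010 TPM with Dex and LPS, so both wild-type groups lay above the mutant groups under the same treatment. With vehicle the order was the other way, 1103 to 1398 TPM in wild type and 1787 to 1864 TPM in Setd1aDel cells. Irf7 was at 259, 260 and 262 TPM with LPS and 114, 132 and 110 TPM with Dex and LPS in wild type, a log2 change of -1.13 and a difference of -2.13 (SE 0.17, adjusted p = 6.84e-07). Xaf1, a pro-apoptotic interferon target, was at 59.3 to 64.1 TPM with LPS and 4.73 to 5.53 TPM with Dex and LPS in Setd1aDel cells. In wild type these ranges were 174 to 183 TPM and 93.7 to 106 TPM, and the responses gave a difference of -2.53 (SE 0.27, adjusted p = 1.51e-05). Ifit1 differed by -1.21, with wild-type values of 156 to 161 TPM with LPS and 33.3 to 42.3 TPM with Dex and LPS.

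All 8 called differences among 19 tested genes of the glucocorticoid-induced list were negative, 7 after scaling. Of all tested genes 7.68% had a negative difference. For Lcn2, Mt2, Sgk1 and Klf9 the negative difference was a smaller rise in Setd1aDel cells, and for Anxa1 a decrease that was larger there. Dusp1, Klf4 and Errfi1 were called lower in Setd1aDel cells and not called in wild type, where their log2 changes were -0.06, -0.14 and -0.12. Fabp4, outside that list, rose less as well. Fabp4 reached 367, 380 and 349 TPM with Dex and LPS in wild type from 3.21, 2.69 and 2.8 TPM with LPS, a difference in response of -2.31 (SE 0.09, adjusted p = 1.47e-09). Lcn2 was at 39.3 to 43.8 TPM with LPS and 438 to 455 TPM with Dex and LPS in wild type, a difference of -0.75, although its levels in both groups were higher in Setd1aDel cells. Mt2 differed by -0.98, Sgk1 by -0.78 and Klf9 by -0.34, whereas Tsc22d3, Fkbp5 and Mt1 did not pass the test, at -0.17, -0.15 and -0.34.

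Cytokine genes differed in both directions, with 9 positive and 6 negative of 23 tested, beside 2.88% and 7.68% of all tested genes. After scaling these counts were 10 and 4, beside 511 and 475 of all 8964 tested genes. Il1b fell from 3829, 3909 and 3455 TPM to 479, 492 and 470 TPM in wild type, so that its decrease was smaller in Setd1aDel cells, with a difference of 1.19 (SE 0.09, adjusted p = 5.85e-07). Ccl2 was at 34 to 41.3 TPM with LPS and 36.5 to 40.2 TPM with Dex and LPS in wild type, and its difference was -1.34 (SE 0.16, adjusted p = 3.99e-05). Ccl22 differed by -0.97 and Cxcl10 by -0.89. Ccnd1 had 177 to 185 TPM with LPS and 147 to 169 TPM with Dex and LPS in wild type and differed by 1.03. Of 45 tested genes of the replication and mitosis list 14 had negative and none positive differences, and 9 had negative ones after scaling.

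**Figure D4:**
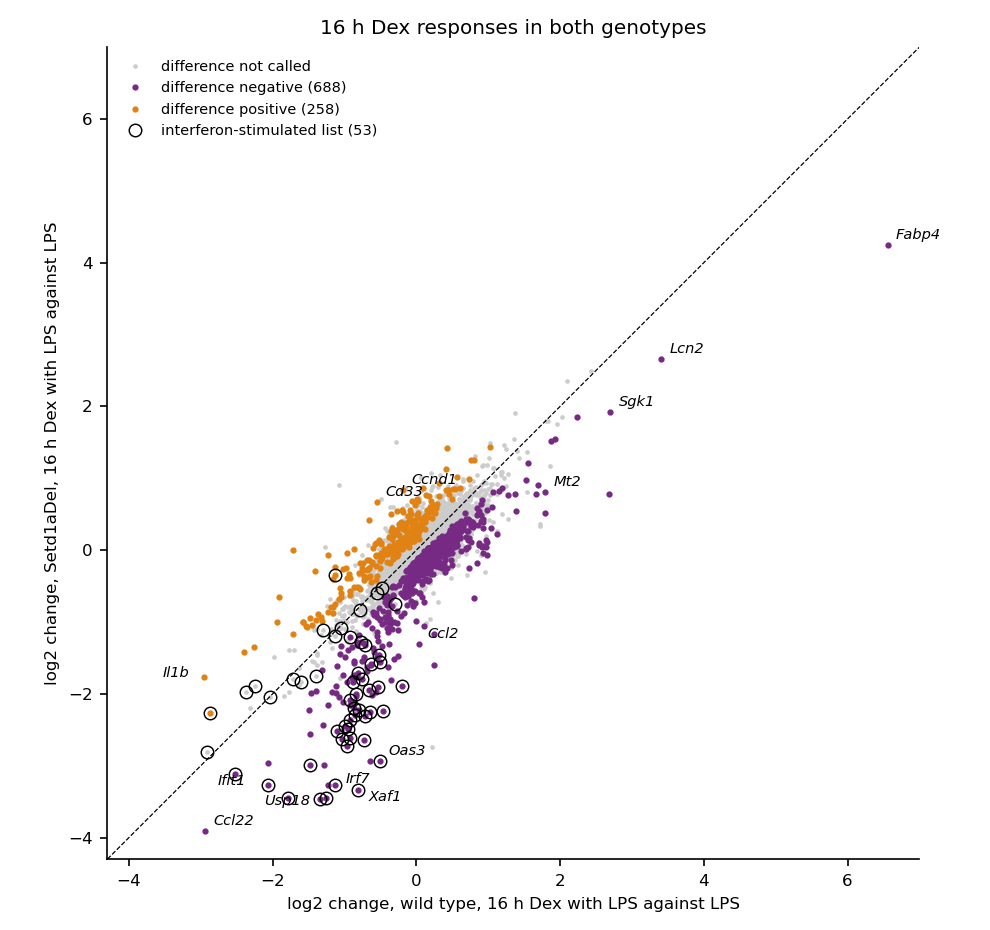
Log2 change with 16 h Dex under LPS in Setd1aDel (y) against wild-type (x) RAW264.7 cells, 1 point per tested gene, with the dashed line at equal change. Purple marks the 688 negative and orange the 258 positive differences, and circles the 53 interferon-stimulated genes. Most circles lie below the line, and Irf7 is at -3.27 in Setd1aDel and -1.13 in wild type.

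The same genotype had also been given Dex for 6 h together with LPS in a separate experiment. There 1988 of 8981 genes were higher (22.1%) and 965 lower (10.7%). Duration and experiment cannot be told apart in this comparison. Genes called in both numbered 1777 in the same direction, which is 44.4% of the 16 h and 60.3% of the 6 h calls, and 142 in opposite directions. The difference, 16 h minus 6 h, was positive for 730 genes (8.13%) and negative for 990 (11.0%).

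Glucocorticoid-induced genes showed only negative differences, 10 of 19. Dusp1 went from 21.6, 20.7 and 22.2 TPM to 84.2, 81 and 87 TPM in the 6 h experiment, a rise of 1.92, but fell by 0.60 at 16 h, a difference of -2.52 (SE 0.10, adjusted p = 9.21e-18). Per1 rose by 1.33 at 6 h, with 9.85 to 14.2 TPM under LPS and 29.6 to 38.7 TPM under Dex and LPS, and differed by -1.67. Tsc22d3 was at 4.4 to 5.78 TPM with LPS and 50.3 to 51.8 TPM with Dex and LPS at 6 h and differed by -1.70 (SE 0.17, adjusted p = 3.8e-09). Sgk1 rose by 2.01 at 6 h and its difference of -0.09 was not called.

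Clock and sterol genes differed between the experiments. The clock list had a median of 0.42 at 6 h and -0.66 at 16 h, with 8 negative differences of 11 and none positive. Tef was at 2.47 to 3.71 TPM with LPS and 5.34 to 7.15 TPM with Dex and LPS at 6 h, and its difference was -2.18 (SE 0.19, adjusted p = 3.6e-10). Cry2 rose by 0.66 at 6 h and differed by -1.84. The sterol list had a median of 0.09 at 6 h and 16 negative differences of 21, with Msmo1 at -1.29.

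Interferon-stimulated genes were lower at 6 h as well, 53 of 53, with a median of -1.18, and 37 differences were negative and 5 positive. Their summed level in the 6 h experiment was 15577 to 16014 TPM with LPS and 7560 to 8742 TPM with Dex and LPS, above the 16 h values of both groups. Positive differences included the growth factors Lif and Csf2 and the cytokine Il1a. Lif, of the interleukin 6 family, was at 16.8 to 18.3 TPM with LPS and 1.47 to 2.34 TPM with Dex and LPS at 6 h. At 16 h it was at 222 to 241 TPM and 108 to 114 TPM, a difference of 1.69 (SE 0.14, adjusted p = 5.9e-11). Il1a differed by 1.41 and Csf2 by 1.51, and Csf2 lost its call with a pseudocount of 0.1 (adjusted p = 0.127). Ptgs2 and Nos2 differed by 1.24 and 1.29, the decrease being smaller at 16 h.

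**Figure D5:**
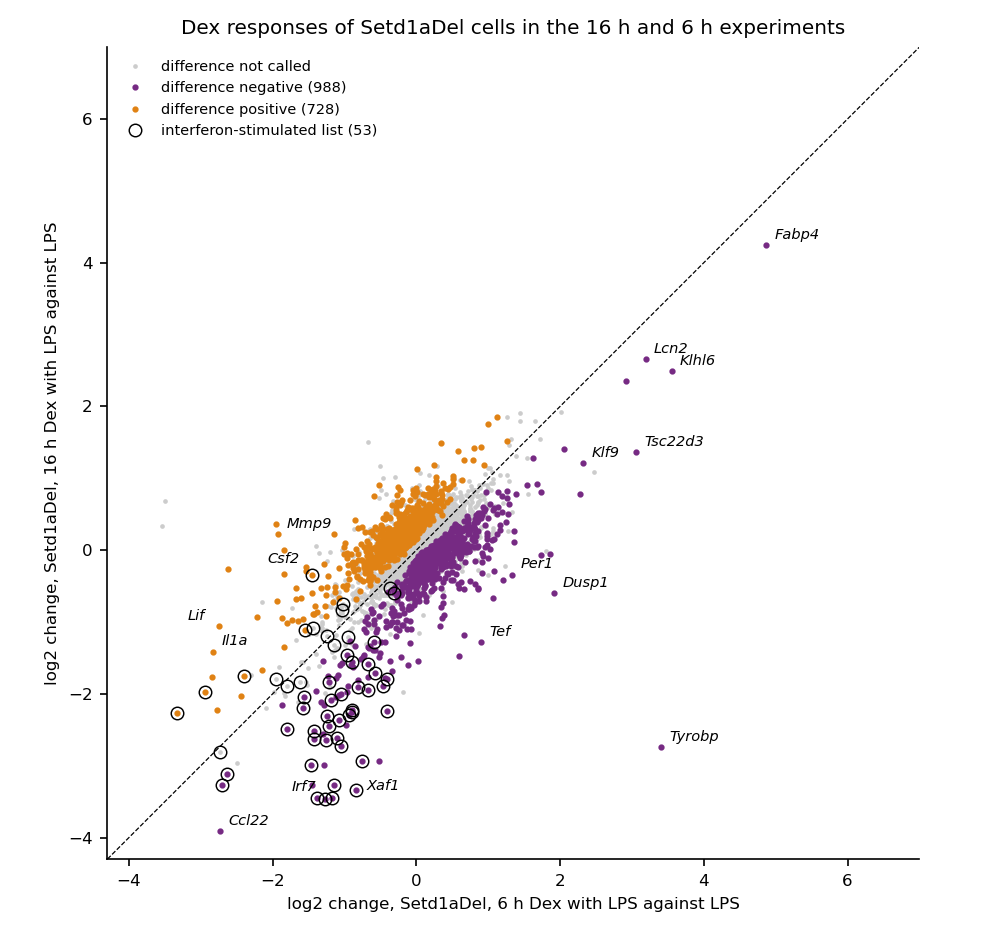
Log2 change with Dex under LPS in Setd1aDel RAW264.7 cells of the 16 h (y) against the 6 h experiment (x), 1 point per gene tested in both, with the dashed line at equal change. Purple and orange mark negative and positive differences, 988 and 728 of the 990 and 730 called, and circles mark interferon-stimulated genes. Dusp1 is at 1.92 on the 6 h and -0.60 on the 16 h axis.

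The authors' deposited table gives its own statistics for the mutant comparison. It calls 1834 genes higher and 1929 lower of 8963, and 3156 genes were called there and here in the same direction and 0 in opposite directions. For Fabp4 the authors' deposited table gives a log2 fold change of 4.59, for Ccl22 -4.00 and for Ifit1 -3.55. It also calls Cxcl2 higher, by 0.41 with an adjusted p of 3.08e-10 in the authors' deposited table, where the fit of all 6 groups used here did not. Among the genes it calls lower are Csf2 (-0.40) and, not called in that fit, Ccl3 (-0.17), H2-D1 (-0.24) and Icam1 (-0.12). Cxxc1, called higher here, is not called there (0.08).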

How the data were processed

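RNA of RAW264.7 cells was sequenced with a stranded poly(A) kit, per the labels' protocols. The deposited TPM values were made by the authors, and listed with them, per the submitters' processing notes, are builds GRCm38.p6 and mm10 and the tools DESeq2, Salmon 0.10.2 and R 3.6.0, without their roles. The authors' table also holds their log2 fold changes and adjusted p-values, used only where named. The IFNB1 table names no unit and was taken as deposited TPM. Members and lists were chosen with earlier results of these data known. Values were analysed as log2(TPM + 1) with limma 3.58.1 (trend) in R 4.3.3. Genes with at least 1 TPM in 3 libraries of a fit were tested, 8964 genes over 18 libraries at 16 h, 8981 over 42 for the difference from 6 h and 8981 over 24 at 6 h, and 10923 over 12 for IFNB1. P-values were two-sided with Benjamini-Hochberg adjustment over all tested genes, and called under 0.05. Named were the 12 highest and 12 lowest called genes with at least 5 TPM and no overlap, up to 4 called and 2 uncalled members per list, the 8 highest and 8 lowest of each difference, and a fixed set of well-known genes. Members named beside other small counts were picked after their values were seen. Coordinates are those of GENCODE vM21 (GRCm38). On simulated data with 8964 genes, 89% of changes of 0.5 and 95% of changes of 1 (log2) were recovered for the Setd1aDel comparison. For the genotype difference these shares were 72% and 91%. The simulation used independent normal noise and changed far fewer genes than were called in the data. Alternatives were another pseudocount, no filter, median-of-ratios scaling, a replicate block, fits of the compared groups alone, leaving out each library and a fold minimum. Figures were drawn with matplotlib 3.10.9.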

Additional observations from a re-analysis of the deposited data

Results flagged for a closer look

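Each difference given here passed the interaction test at an adjusted p under 0.05, and all are on the log2 scale. Groups of 3 libraries are too small for a test of single outlying libraries.

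The response to 16 h of Dex differed between genotypes, Setd1aDel minus wild type, for these named genes. Positive differences were those of Tgtp2 (1.71), Scimp (1.25), Cd33 (1.22), Il1b (1.19), Enc1 (1.16), Serpinb9 (1.13), Myo1g (1.08), Ccnd1 (1.03) and Nos2 (0.396). Tgtp2, an interferon-induced GTPase with the close copy Tgtp1, was at 0.00658 TPM or less in the 16 h Setd1aDel libraries and at 6.29 to 6.67 TPM with LPS in wild type, and at 1.14 TPM, the middle value, with Dex and LPS there, so the sign of its difference was fixed by the wild-type fall and describes no response of Setd1aDel cells. Cd33, a lectin that binds sialic acid, rose by 0.67 in Setd1aDel cells and fell by 0.55 in wild type.

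Negative differences were those of Xaf1 (-2.53), Oas3 (-2.43), Fabp4 (-2.31), H2-T24 (-2.29), Usp18 (-2.20), Irf7 (-2.13), Ifi44 (-2.12), Ifi44l (-2.03), Ccl2 (-1.34), Ifit1 (-1.21), Mt2 (-0.978), Cxcl10 (-0.893), Sgk1 (-0.783), Lcn2 (-0.752), Dusp1 (-0.542), Il6 (-0.352) and Klf9 (-0.336). H2-T24, a class I-like gene, was at 2.15 to 2.34 TPM with Dex and LPS in Setd1aDel cells and at 45.8 to 53.1 TPM in wild type.

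The response of Setd1aDel cells differed between experiments, 16 h minus 6 h. Positive differences were those of Ifit1bl1 (2.36), Mmp9 (2.14), Tgtp2 (1.83), Lif (1.69), Csf2 (1.51), Dnhd1 (1.43), Il1a (1.41) and Ptpn5 (1.37). Ifit1bl1 was at 0.323 TPM or less in the 16 h libraries of Setd1aDel cells, against 15.3 to 19.1 TPM with LPS and 1.28 to 2.57 TPM with Dex and LPS at 6 h. Tgtp2 was likewise almost absent at 16 h in these cells. Both passed the filter on low values through the 6 h groups, so the sign of their differences was fixed by their fall there. Dnhd1 lost its call without LPS replicate 1 (adjusted p = 0.0723) or Dex with LPS replicate 1 (0.0523) of the 6 h experiment.

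Negative differences were those of Tyrobp (-6.15), Dusp1 (-2.52), Xaf1 (-2.50), H2-T24 (-2.41), Zbp1 (-2.28), Ifi44 (-2.19), Tef (-2.18) and Oas3 (-2.17). Tyrobp had 0.0393, 56.2 and 23.4 TPM in the 6 h LPS libraries and 88.5, 140 and 137 TPM with 6 h of Dex and LPS. Its difference was -4.43 without the LPS library at 0.0393 TPM and -4.70 without the 16 h Dex library at 1.73 TPM, and its call was lost in a fit of the compared groups alone (adjusted p = 0.0644).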

How the results depend on the processing

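In the Setd1aDel comparison 158 of 178 named genes kept their side of the threshold under every setting run, and 0 reversed. Calls restricted to at least 2-fold numbered 43 higher and 170 lower in Setd1aDel cells and 59 and 116 in wild type, 8 positive and 54 negative for the genotype difference and 29 and 76 for 16 h minus 6 h. Median-of-ratios scaling gave 1774 higher and 2086 lower in wild type and 511 positive genotype differences, and left the other counts of all tested genes within 1.5 times. The set of genes lower with wild-type LPS shrank from 1507 to 765. Fitting only the compared groups gave 468 positive differences between 16 h and 6 h. Leaving out each library in turn gave 2179 to 2774 higher and 1163 to 1307 lower in Setd1aDel cells, 2721 to 2862 and 983 to 1030 in wild type, 194 to 314 positive and 502 to 715 negative genotype differences, and 535 to 839 and 814 to 1031 for 16 h minus 6 h. With the replicate number as a block the Setd1aDel counts were 2575 higher and 1279 lower, and no named call changed. Same-numbered LPS and Dex with LPS libraries did not deviate together (correlations 0.0143, -0.0182 and -0.0555). These values do not tell whether same-numbered libraries were handled together, which the labels do not state. Depth is unknown, which leaves low TPM values without a stated precision, and the table holds only genes expressed in the 6 h experiment.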
